A study of Homo sapiens with 6 samples.

Results

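The 8 genes described here are the neuronal pentraxins NPTX1, NPTX2 and NPTXR and the endophilins SH3GL1, SH3GL2, SH3GL3, SH3GLB1 and SH3GLB2. They were taken as 2 complete gene families by symbol, out of 58302 gene IDs in the count tables. The families were chosen by the read counts of NPTX2 and SH3GL2, already known to be higher in this same comparison, so the group difference, its interval and its call in the fit over all genes are given for these 8 genes only as a description, which supports nothing further. All 8 had reads in every library, all 8 passed the filter on low counts, and none was left out. Both families were followed in A375 cells, a human melanoma line, by RNA sequencing. There were 3 libraries from empty vector control cells and 3 from cells that stably overexpress HMGB2, a chromatin protein that bends DNA. The study's methods describe lentiviral transduction and antibiotic selection for the overexpression line, and do not name the empty vector line there. No other treatment of either line is given. The study's reporting form calls the 3 replicates of a condition technical, so the spread between libraries covers cell pellets of 1 line per group and not separate transductions.

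Neuronal pentraxins are secreted or membrane-bound relatives of the pentraxins of innate immunity. NPTX1 and NPTX2 are released from neurons, NPTXR is anchored in the membrane, and the assembled complexes gather AMPA-type glutamate receptors at excitatory synapses. Transcription of NPTX2, also known as Narp, follows neuronal activity. Endophilins carry a BAR domain, which binds and bends membranes, and an SH3 domain, which binds proline-rich partners. The endophilin A proteins (SH3GL1, SH3GL2 and SH3GL3) bring dynamin and synaptojanin to the necks of endocytic vesicles. SH3GL2 encodes the brain form endophilin A1, while SH3GL1 encodes the widely expressed endophilin A2. The endophilin B proteins SH3GLB1 and SH3GLB2 act at autophagic and mitochondrial membranes.

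The promoters of SH3GL2 and NPTX2 are shown first, because these are the members whose level separated the groups most. Each is the 250 bases before the annotated start in RefSeq (build GRCh38.p14), 5′ to 3′ on the strand of the gene. SH3GL2 is at chr9:17578816-17579065 and NPTX2 at chr7:98617035-98617284, both on the plus strand. The promoter of SH3GL1, at chr19:4400548-4400797 on the minus strand, is added for contrast as that of the related gene with the highest level. Capitals mark GC boxes (GGGCGG or its complement CCGCCC), the CCAAT box and, in SH3GL1, the E-box CACGTG.

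SH3GL2 promoter: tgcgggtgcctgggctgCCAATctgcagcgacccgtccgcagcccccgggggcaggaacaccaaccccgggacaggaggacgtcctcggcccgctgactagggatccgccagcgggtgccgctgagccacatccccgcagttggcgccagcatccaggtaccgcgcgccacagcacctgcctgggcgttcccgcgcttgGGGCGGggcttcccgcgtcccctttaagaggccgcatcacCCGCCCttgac

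NPTX2 promoter: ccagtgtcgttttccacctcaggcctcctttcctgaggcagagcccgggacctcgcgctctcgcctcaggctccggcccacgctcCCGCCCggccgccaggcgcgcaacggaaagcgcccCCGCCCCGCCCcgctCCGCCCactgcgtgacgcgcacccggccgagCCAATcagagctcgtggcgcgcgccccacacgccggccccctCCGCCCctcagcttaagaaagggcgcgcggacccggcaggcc

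SH3GL1 promoter: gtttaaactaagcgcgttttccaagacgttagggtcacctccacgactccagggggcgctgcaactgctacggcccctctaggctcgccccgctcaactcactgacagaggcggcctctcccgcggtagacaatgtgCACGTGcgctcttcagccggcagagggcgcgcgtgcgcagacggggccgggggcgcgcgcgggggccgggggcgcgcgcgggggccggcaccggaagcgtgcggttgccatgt

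SH3GL2 and NPTX2 both have GC-rich promoters without a TATA box. The GC content was 72% for SH3GL2, 75.6% for NPTX2 and 70.4% for SH3GL1, against a median of 58% over 35097 promoters of the same length. The ratio of observed to expected CpG was 0.779, 1.01 and 1.07, against a median of 0.558. The SH3GL2 promoter held 2 GC boxes and 1 CCAAT box, and the NPTX2 promoter held 5 GC boxes, of which a pair overlap by 1 base, and 1 CCAAT box. A GC box was found on either strand of 42.6% of all promoters and CCAAT in 32.0%. The AP-1 motif TGANTCA (6.57% of all promoters), the cyclic AMP response element TGACGTCA (1.65%) and TATAAA (10.7%) were searched on both strands and matched in none of the promoters of the members in the table. The E-box CACGTG (6.34%) matched in SH3GL1 only. SH3GLB1 had 62% GC and 2 GC boxes, and SH3GLB2 had 79.6% GC and 9 GC boxes. SH3GL3 had 2 annotated starts, with 61.6% and 48.4% GC. The first held 1 GC box and 1 CCAAT box, as the SH3GL2 and NPTX2 promoters held both motifs, and the second held neither.

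The genes lie on 7 chromosomes. Positions are from GENCODE 44 on hg38. NPTX1 (chr17:80466834-80477843, minus strand), NPTX2 (chr7:98617285-98629869, plus strand) and NPTXR (chr22:38818452-38844028, minus strand) each have 5 exons in the canonical transcript. SH3GL2 (chr9:17579066-17797124, plus strand) spreads 9 exons over 218059 bases, and SH3GL3 (chr15:83447228-83618743, plus strand) 9 exons over 171516 bases. SH3GL1 (chr19:4360370-4400547, minus strand) has 10 exons, SH3GLB1 (chr1:86704570-86748184, plus strand) 9 and SH3GLB2 (chr9:129007036-129028331, minus strand) 11. The coding sequence of NPTX2 was identical to that of NPTX1 at 73.0% of aligned bases and to that of NPTXR at 69.7%. SH3GL2 was identical to SH3GL1 at 72.5% and to SH3GL3 at 68.1%, while endophilins A and B were identical to each other at 56.1% to 59.4%. No 50-base word of NPTX1, NPTX2, SH3GL2 or SH3GLB2 occurs in another gene, and between 0.203% and 1.32% of the words of the other 4 do, none of them in another member.

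Reads assigned to genes numbered between 45925053 and 56755212 per library, and depth did not separate the groups (exact two-sided permutation p = 0.8, where the smallest p for 3 against 3 is 0.1). Multimapped reads, which enter no gene count, made up 2.58% to 3.96% of reads with the empty vector and 3.32% to 10.6% with overexpression. HMGB2 (ENSG00000164104) itself rose from 7514 ± 243 to 15517 ± 1177 in normalized counts (± SD, n = 3 per group), which are counts divided by DESeq2 size factors, or 1.05 on the log2 scale (SE 0.10, adjusted p = 4.4e-22 in DESeq2). On the first principal component empty vector replicates 1 and 2 lay at -39.1 and -34.7, replicate 3 at 2.70 and the overexpression libraries between 15.4 and 37.2, so empty vector replicate 3 stood apart from its group. Of 8 melanocyte markers, 3 (S100B, MITF and PMEL) reached a mean TPM of 1 (reads per kilobase of exon, scaled to 1000000 per library). MLANA, TYR, TYRP1 and DCT stayed below it. SOX10 was listed at 0 in the column that counts either strand, against 28863 to 56464 reads per library in the stranded columns. Its level is therefore uncertain, and the 3 of 8 do not include it. PMEL had 50 to 68 reads per library in that column against 1529 to 2017 in the stranded columns, so its level is uncertain too. All 6 markers of undifferentiated melanoma passed that level, and 3 of them (AXL, NGFR and FOSL1) were called lower. Among 7 neuron markers 2 did (SYT1 and GAP43), with a summed TPM of 10.9 to 17.3 in empty vector and 10.1 to 14.3 in overexpression libraries, 1 called higher and 2 lower. Among 5 leukocyte markers only LYZ did, and PTPRC was at 0. Keratinocyte and fibroblast markers passed that level for 3 of 5 and 5 of 6 genes, with summed levels that overlapped between the groups.

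**Figure D1:**
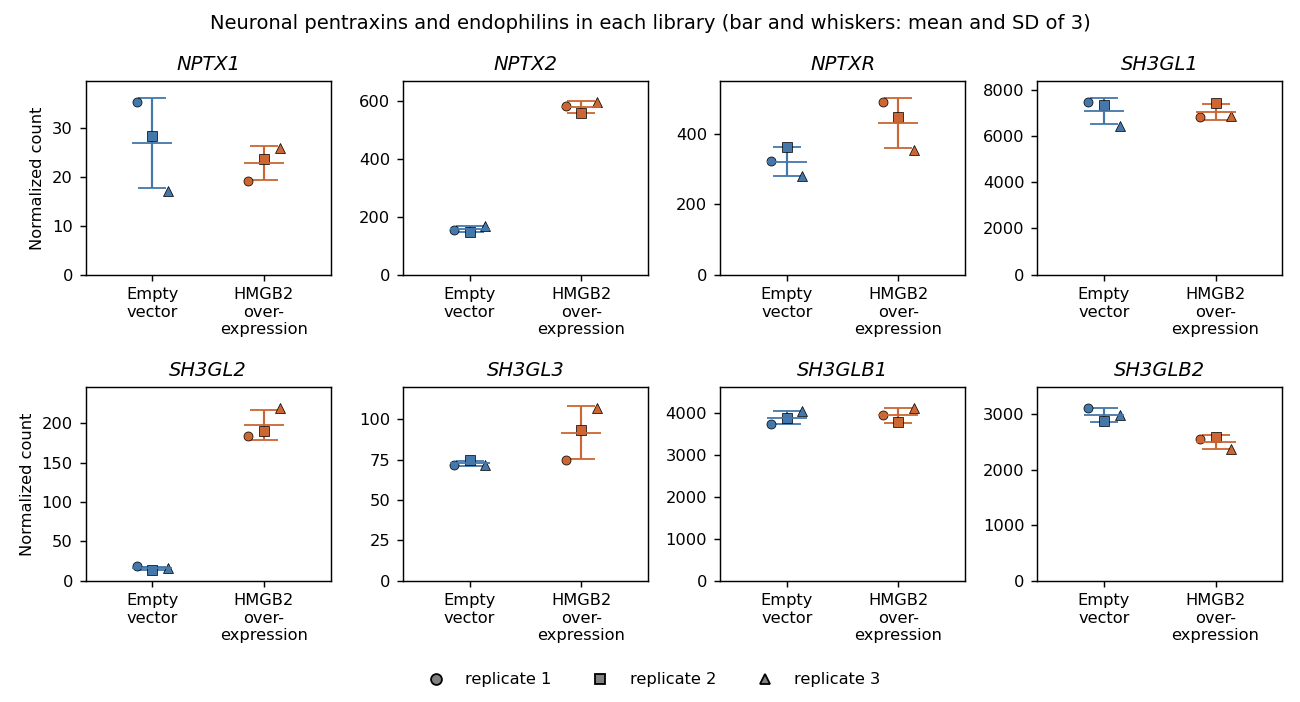
Normalized count (vertical axes, from 0, one scale per gene) of the 8 genes in the 3 empty vector (blue) and 3 HMGB2 overexpression (orange) libraries, with a horizontal bar and whiskers for the mean and SD. NPTX2 (149 to 170 against 557 to 598) and SH3GL2 (14.2 to 18.2 against 184 to 219) are far apart between the groups, while the groups lie close together or overlap for the other 6 genes.

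Of the 8 genes, 2 were called higher, NPTX2 and SH3GL2, where a call is a DESeq2 adjusted p under 0.05 over all genes. Over all 18836 genes tested the share called higher was 2.29% and the share called in either direction 4.94%. Nothing is read from the members' count, since this contrast chose the families. In normalized counts the groups did not overlap for 4 of the 8 genes, 3 higher and 1 lower, against 22.8% of the 16692 genes that averaged 10 or more normalized counts (11.4% higher and 11.4% lower).

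NPTX2 (ENSG00000106236) was higher in all 3 overexpression libraries. Its normalized counts were 155, 149 and 170 with the empty vector (replicates 1 to 3) and 581, 557 and 598 with overexpression. The lowest overexpression library lay more than 3 times above the highest empty vector library. The means were 158 ± 10.7 and 579 ± 20.2 (± SD, n = 3 per group), a fold change of 3.68 (95% interval of the model 3.02 to 4.47) and a log2 fold change of 1.88 (SE 0.14). The raw reads were 153, 168 and 158 against 640, 566 and 531. NPTX2 ranked 134th by rise among 18836 genes. In bulk libraries such as these, a change in the number of cells that express a gene and a change in the RNA per cell cannot be told apart.

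NPTX1 (ENSG00000171246), the other secreted neuronal pentraxin, was near the floor of detection. It had 35, 32 and 16 raw reads with the empty vector and 21, 24 and 23 with overexpression. The normalized counts were 35.4, 28.3 and 17.2 against 19.1, 23.6 and 25.9, and the groups overlapped. The log2 fold change was -0.25 (SE 0.44), not called, and its 95% interval in fold, 0.464 to 1.53, covers changes in either direction.

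NPTXR (ENSG00000221890), the membrane-anchored member, had normalized counts of 322, 361 and 279 with the empty vector and 491, 446 and 353 with overexpression. Overexpression replicates 1 and 2 lay above every empty vector library, but replicate 3 lay below empty vector replicate 2. The means were 321 ± 41.2 and 430 ± 70.0 (± SD, n = 3 per group), a log2 fold change of 0.42 (SE 0.18) that was not called. NPTXR was called higher in 2 of 16 settings, with a term for the replicates numbered 3 and in a fit of replicates 1 and 2 alone, where the shares of all genes called higher were 8.71% and 8.01%. Replicate 3 had the lowest NPTXR count in both groups.

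SH3GL2 (ENSG00000107295), encoding endophilin A1, went from a trace to a clearly detected transcript. Its raw reads were 18, 16 and 15 with the empty vector, 49 in all, and 203, 193 and 195 with overexpression, 591 in all. The normalized counts were 18.2, 14.2 and 16.1 against 184, 190 and 219. Every overexpression library was at least 10 times above every empty vector library. The means were 16.2 ± 2.01 and 198 ± 18.8 (± SD, n = 3 per group), a fold change of 12.3 (95% interval of the model 8.30 to 18.2) and a log2 fold change of 3.62 (SE 0.29). SH3GL2 ranked 12th by rise among 18836 genes.

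SH3GL1 (ENSG00000141985), the ubiquitous endophilin A2, was the member with the highest TPM. Its normalized counts were 7475, 7324 and 6434 with the empty vector and 6833, 7409 and 6851 with overexpression. The ranges overlapped, and the fold change was 0.993 (95% interval of the model 0.860 to 1.15). Between 72.6% and 74.5% of its stranded reads were kept in the count for either strand. The lncRNA gene ENSG00000267980 on the opposite strand shares 194 exonic bases with it, and reads in such a place are set aside as ambiguous. Between 2106 and 2975 reads per library were set aside for SH3GL1, with no separation of the groups. The other 7 genes kept at least 97.7%.

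SH3GL3 (ENSG00000140600), endophilin A3, had normalized counts of 71.7, 74.4 and 71.9 with the empty vector and 74.5, 93.6 and 107 with overexpression. The groups did not overlap, but overexpression replicate 1 (74.48) and empty vector replicate 2 (74.41) were next to each other. The log2 fold change of 0.33 (SE 0.25) was not called. Its SD with overexpression, 16.3, was far above that of 1.5 with the empty vector.

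The endophilin B genes were both well expressed. SH3GLB1 (ENSG00000097033), also known as Bif-1 and a binding partner of BAX and of the Beclin 1 complex, had 3728, 3886 and 4045 normalized counts with the empty vector and 3941, 3770 and 4117 with overexpression. These ranges overlapped, and the fold change was 1.01 (95% interval of the model 0.891 to 1.16). SH3GLB2 (ENSG00000148341) had 3111, 2873 and 2976 against 2543, 2591 and 2363, so every overexpression library lay below every empty vector library. The means were 2987 ± 120 and 2499 ± 120 (± SD, n = 3 per group), a fold change of 0.837 (95% interval of the model 0.732 to 0.957) and a log2 fold change of -0.26 (SE 0.10). SH3GLB2 was not called in the comparison of all 6 libraries. It was called lower in 4 of 16 settings, under the replicate block, with the term for the replicates numbered 3, in replicates 1 and 2 alone and without empty vector replicate 3, where 6.46%, 8.61%, 9.44% and 9.46% of all genes were called lower.

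**Figure D2:**
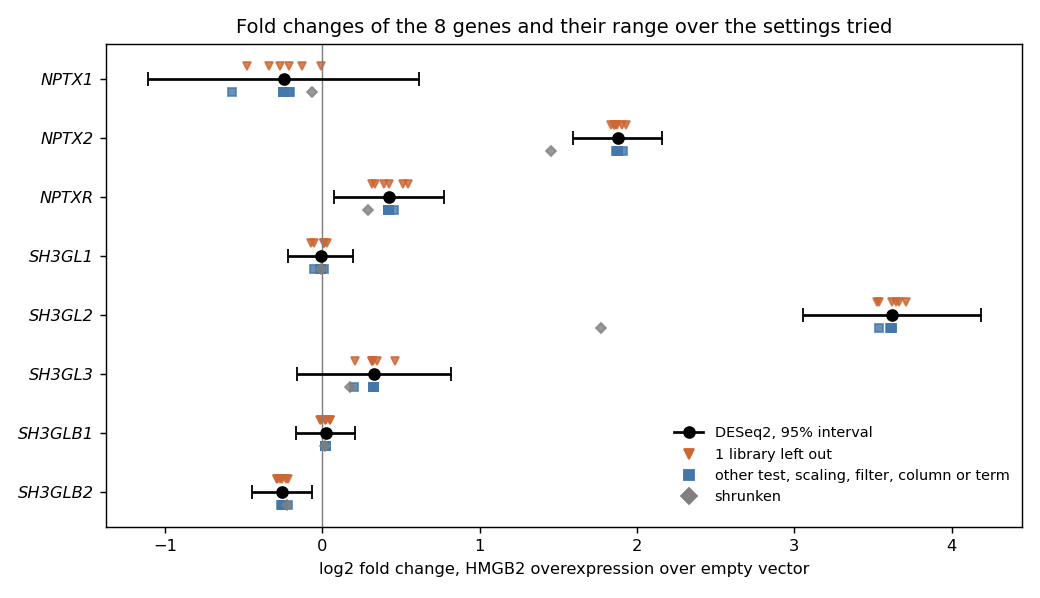
Log2 fold change (horizontal axis, overexpression over empty vector) of the 8 genes with its 95% interval in DESeq2 (black), leaving out 1 library at a time (orange), under other settings (blue) and shrunken (grey). NPTX2 (1.45 to 1.93) and SH3GL2 (1.77 to 3.71) lie above 0 at every point, and the lowest value of each is the shrunken one.

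Leaving out any 1 library gave log2 fold changes of 1.83 to 1.93 for NPTX2 and 3.52 to 3.71 for SH3GL2, as the plot of fold changes shows. These values come from the same counts that chose both genes. The shrunken value of SH3GL2 was 1.77, well under the unshrunken one.

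Levels of different genes were compared per length, as TPM over merged exons. With the empty vector SH3GL1 led at 140 ± 17.0 TPM (SD, n = 3), followed by SH3GLB1 at 41.0 ± 0.631, SH3GLB2 at 31.7 ± 2.15, NPTXR at 4.01 ± 0.649, NPTX2 at 3.78 ± 0.128, SH3GL3 at 1.57 ± 0.0834, SH3GL2 at 0.436 ± 0.0625 and NPTX1 at 0.282 ± 0.106. NPTXR and NPTX2 were not separated there, and every other pair of neighbours in the order was. This order depends on the length used. With the longest transcript as length, the empty vector mean of SH3GLB2 (31.6 TPM) was above that of SH3GLB1 (30.7 TPM). That of NPTX2 (2.96 TPM) was then already above that of NPTXR (2.82 TPM). The values that follow are again over merged exons. With overexpression NPTX2 reached 13.6 ± 0.135 TPM and passed NPTXR at 5.27 ± 0.998, while SH3GL2 reached 5.23 ± 0.342, passed SH3GL3 at 1.94 ± 0.317 and was not separated from NPTXR. SH3GL1 (136 ± 12.0), SH3GLB1 (40.8 ± 0.0119) and SH3GLB2 (26.1 ± 2.35) kept the first 3 places and NPTX1 (0.232 ± 0.0333) the last.

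**Figure D3:**
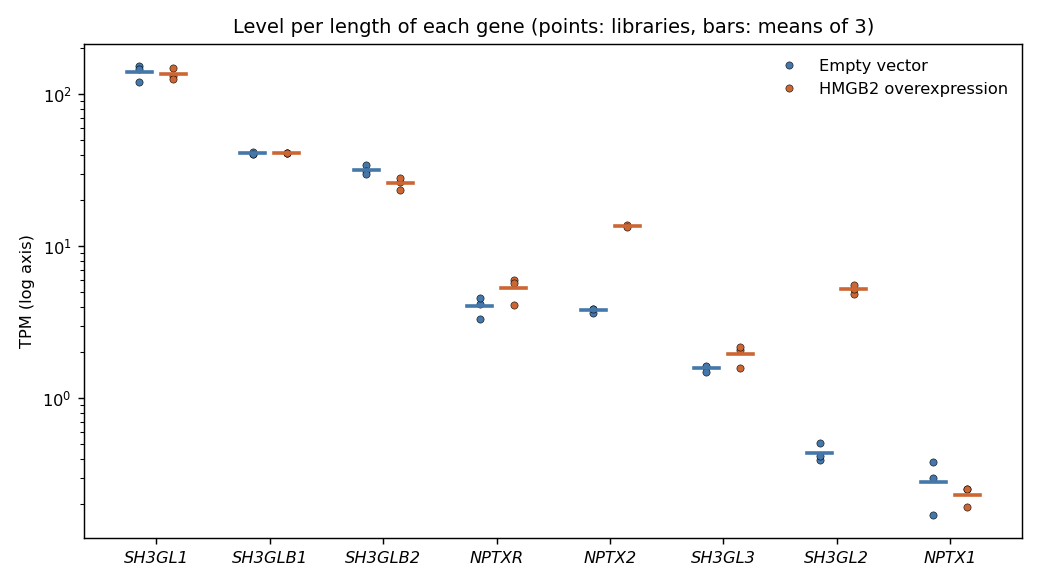
TPM (vertical log axis) of each gene in the empty vector (blue) and HMGB2 overexpression (orange) libraries, with points for libraries and bars for means of 3, in the order of the empty vector level. SH3GL2 moves from 0.436 to 5.23 TPM and NPTX2 from 3.78 to 13.6, both still well below SH3GL1 at 136.

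The shares within each family are given as a description, since those of SH3GL2 and NPTX2 restate the rises that chose the families. The endophilin A sum hardly moved. SH3GL2 supplied 0.328%, 0.261% and 0.337% of endophilin A TPM in the empty vector libraries and 3.52%, 3.35% and 4.13% in the overexpression libraries. The sum of the 3 endophilin A genes was 142 ± 17.1 TPM and 143 ± 12.0 (± SD, n = 3 per group), because SH3GL1 supplied 98.6% of it and then 94.98%. With the stranded columns summed, which hold the SH3GL1 reads set aside above, the mean shares of SH3GL2 were 0.230% and 2.71%. The neuronal pentraxin sum went from 8.07 ± 0.636 to 19.1 ± 1.11 TPM. The share of NPTX2 in it went from 47.1 ± 5.11% to 71.3 ± 3.57% and that of NPTXR from 49.5 ± 4.40% to 27.4 ± 3.75%, although the TPM of NPTXR was no lower. The endophilin B sum was 72.8 ± 2.10 and 66.8 ± 2.35 TPM, of which SH3GLB1 made up 56.4 ± 1.76% and 61.1 ± 2.16%. These shares are over merged exons, and with the longest transcript SH3GLB1 was below SH3GLB2 in the empty vector means.

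The proteins that work with these families were examined through 7 lists of 78 genes, of which 68 received an adjusted p. In DESeq2, 3 were called higher and 2 lower (7.35% against 4.94% of all genes), and the median log2 fold change was 0.04 against 0.00 over all genes. The called genes were spread over 4 lists, and no list held more than 1 gene called in the same direction. The counts were 4 higher and 8 lower without empty vector replicate 3, where 8.31% and 9.46% of all genes were called higher and lower. They were 1 and 1 without empty vector replicate 1, 2 and 1 without empty vector replicate 2, and 0 and 1 without overexpression replicate 3.

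Among the other pentraxins, only PTX3 received an adjusted p. PTX3, a secreted pattern recognition protein of innate immunity, fell from 744 ± 23.4 to 441 ± 21.3 in normalized counts (± SD, n = 3 per group), or -0.75 on the log2 scale (SE 0.12, adjusted p = 7.21e-08 in DESeq2). It was called lower in all 14 alternatives tried for it. The highest PTX3 count with overexpression was 455 and the lowest with the empty vector 718, so PTX3 lay on the other side of 0 from NPTX2. CRP and PTX4 had no reads and APCS had 1.

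The receptors and binding partners of the neuronal pentraxins gave no call among 5 tested genes, with no unadjusted p under 0.05 in DESeq2 and no call in edgeR, which called 2.81% of all genes. The AMPA receptor subunits were at or near the floor of detection. GRIA1 had 0 reads in all 6 libraries. In a single library 0 reads allow up to 3 by counting error alone, and the 6 together allow fewer per library. GRIA3 had 3 reads over the empty vector libraries and 8 over the overexpression libraries. GRIA2 averaged 16.8 ± 4.45 and 19.6 ± 1.88 normalized counts. RCN2, a reticular calcium-binding protein that binds neuronal pentraxins, had the highest level of the list at 37.1 ± 3.61 and 42.0 ± 0.776 TPM and was not called. The median log2 fold change of the 5 was 0.21.

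The list of dynamins, synaptojanins and amphiphysins, the main SH3 partners and co-workers of endophilin A, had 1 call among 11. AMPH, encoding the nerve terminal protein amphiphysin, rose from 6.51 ± 3.45 to 29.3 ± 4.62 in normalized counts (± SD, n = 3 per group), or from 20 reads in all to 87, or 2.16 on the log2 scale (SE 0.56, adjusted p = 0.00459 in DESeq2). The call was lost without empty vector replicate 2 (0.0757) and without overexpression replicate 2 (0.0943) or 3 (0.12). It was barely kept without overexpression replicate 1 (0.04996). AMPH received no adjusted p under the replicate block or in replicates 1 and 2 alone. DNM1, DNM2 and DNM3, the dynamins that cut vesicles free, had log2 fold changes of 0.12, -0.21 and 0.29, and SYNJ1 and SYNJ2 of 0.03 and -0.24, none called. PACSIN3 had the highest level of the list, at 156 ± 26.0 and 149 ± 20.1 TPM.

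Among 20 genes of the clathrin coat and its adaptors, HSPA8 alone was called in DESeq2, with 5 unadjusted p under 0.05, 3 higher and 2 lower, and edgeR called 0. HSPA8, the chaperone that strips clathrin from vesicles and serves many other folding tasks, rose from 56398 ± 9389 to 82382 ± 9200 in normalized counts (± SD, n = 3 per group), or 0.55 on the log2 scale (SE 0.15, adjusted p = 0.00701 in DESeq2). Its call was lost in edgeR (0.0742), without empty vector replicate 1 (0.149) or 2 (0.0868) and without overexpression replicate 3 (0.13). The list's median log2 fold change was 0.07. The genes of endophilin A uptake and receptor sorting gave no call among 10, with 2 unadjusted p under 0.05 in DESeq2, both lower, and none called in edgeR. CTTN, encoding the actin-binding protein cortactin, had the highest level there and a log2 fold change of 0.05. The genes of endophilin B, autophagy and mitochondria gave no call among 8, with 0 unadjusted p under 0.05 and none called in edgeR. BAX was the highest of them, at 101 ± 10.4 and 102 ± 10.6 TPM.

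Genes of the synaptic vesicle and presynaptic terminal, where endophilin A1 and amphiphysin work in neurons, moved both ways. SNAP25, a SNARE protein of vesicle fusion, rose from 87.4 ± 26.6 to 184 ± 25.6 in normalized counts (± SD, n = 3 per group), or 1.07 on the log2 scale (SE 0.26, adjusted p = 0.00146 in DESeq2). SYT1, the calcium sensor of release, fell from 1330 ± 319 to 758 ± 143, or -0.81 on the log2 scale (SE 0.20, adjusted p = 0.00328 in DESeq2). The call of SNAP25 was lost without empty vector replicate 1 (0.0549) or overexpression replicate 3 (0.057). The call of SYT1 was lost in edgeR (0.073), without empty vector replicate 1 (0.0605) or 2 (0.0655) and without overexpression replicate 3 (0.0558). The other 11 of 13 tested genes were not called, and SV2A had the highest level, at 80.4 ± 12.0 and 76.2 ± 4.38 TPM. SNAP25 and SYT1 are also on the list of 7 neuron markers.

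**Figure D4:**
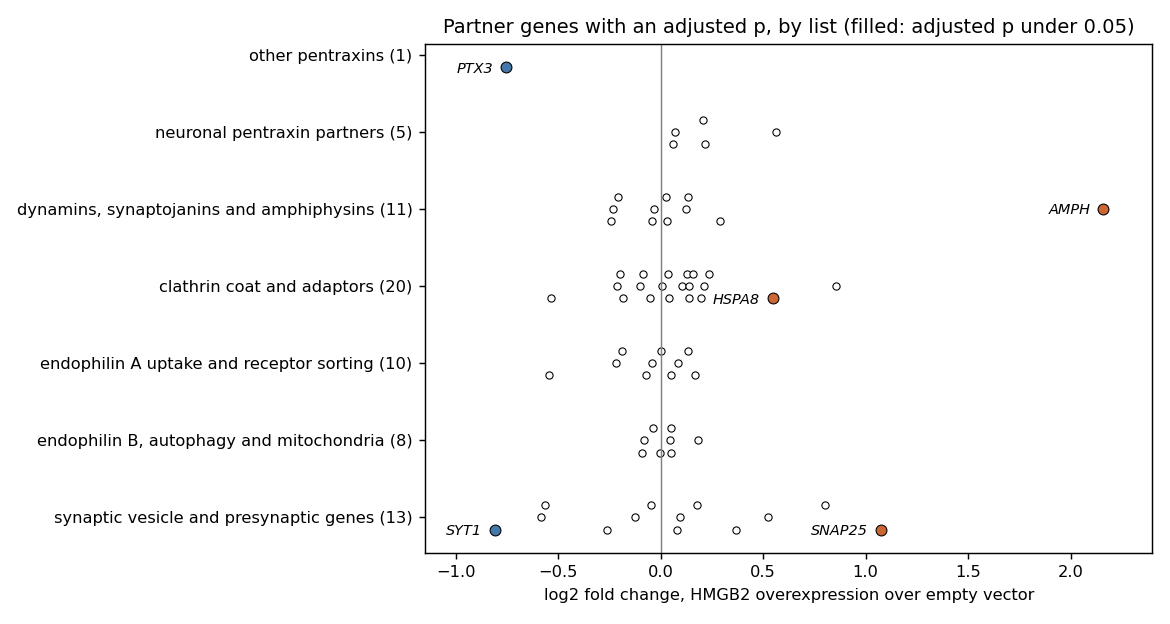
Log2 fold change (horizontal axis, overexpression over empty vector) of each partner gene with an adjusted p, 1 row per list with the number tested in parentheses; filled points had a DESeq2 adjusted p under 0.05. The 5 filled points (PTX3 and SYT1 lower, AMPH, HSPA8 and SNAP25 higher) stand in 4 lists, and most open points lie near 0.

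The genes around the members were examined next, since position was not used to choose them. Of 500 other genes with a start within 1 Mb of a member's start, 234 received an adjusted p, and DESeq2 called 4 higher and 9 lower. The background over all genes was 2.29% higher and 2.64% lower. Without empty vector replicate 3 the counts were 14 and 42, beside 8.31% and 9.46% of all genes in that fit, and without each of the other libraries they were 0 to 2 and 4 to 7. Around SH3GL2, 5 genes were tested. The nearest upstream that averaged 10 or more, CNTLN, starts 444 kb away and had a log2 fold change of -0.16 (SE 0.14). The nearest downstream, ADAMTSL1, encoding a secreted matrix protein, starts 327 kb away and fell from 359 ± 77.6 to 206 ± 17.4 in normalized counts (± SD, n = 3 per group), or -0.80 on the log2 scale (SE 0.20, adjusted p = 0.00271 in DESeq2). The call of ADAMTSL1 was lost without empty vector replicate 1 (0.108) or 2 (0.0817) and without overexpression replicate 3 (0.0566). No neighbour of SH3GL2 was called higher in DESeq2.

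Around NPTX2, 27 genes were tested, 1 called higher and 2 lower. The nearest upstream, BAIAP2L1, starts 216 kb away and had a log2 fold change of -0.19 (SE 0.13). The nearest downstream, TMEM130, starts 253 kb away and rose from 36.2 ± 10.5 to 73.4 ± 16.8 in normalized counts (± SD, n = 3 per group), or 1.03 on the log2 scale (SE 0.33, adjusted p = 0.0446 in DESeq2). That call was lost in 8 alternatives, among them edgeR (0.0921) and 5 of the 6 fits that left out 1 library. TAC1, the gene of the neuropeptide substance P, starts 885 kb upstream and fell from 119 ± 5.37 to 19.0 ± 8.58 normalized counts (-2.62 on the log2 scale, SE 0.33, adjusted p = 1.51e-12 in DESeq2). ASNS, encoding asparagine synthetase, starts 745 kb upstream and fell from 152 ± 18.5 to 58.7 ± 8.03 (-1.37 on the log2 scale, SE 0.23, adjusted p = 8.83e-07 in DESeq2). TAC1 and ASNS were called lower in all 14 alternatives tried for each, while TMEM130, the only neighbour of NPTX2 called higher, lost its call in 8.

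**Figure D5:**
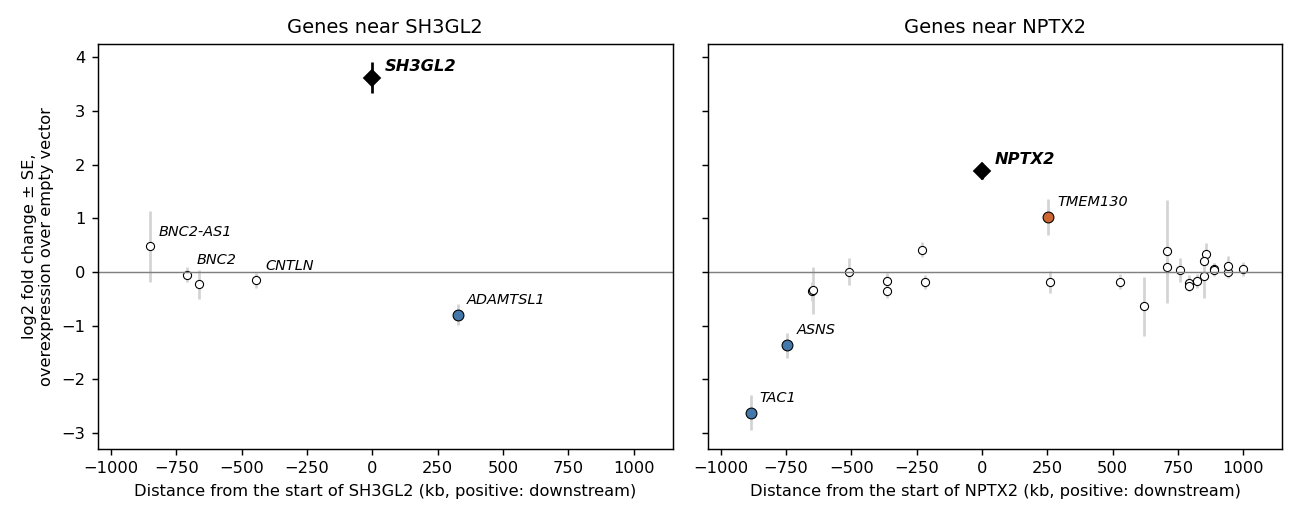
Log2 fold change with its SE (vertical axis) of the tested genes near SH3GL2 (left) and NPTX2 (right), against the distance of their start from that of the member (horizontal axis, kb). The 5 genes near SH3GL2 lie between -0.80 and 0.47, far below SH3GL2 at 3.62, and near NPTX2 the called genes are TMEM130 (higher) and ASNS and TAC1 (lower).

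Away from these genes, RBFOX3 and CLCA2 had the largest changes among neighbours. RBFOX3, encoding the neuronal splicing factor NeuN and starting 867 kb from NPTX1, had 20, 37 and 17 reads with the empty vector and 1, 2 and 0 with overexpression. That is 74 against 3 reads, a ratio of 24.3 after scaling (95% counting interval 8.0 to 120.5). That interval pools the reads of each group and leaves out the spread between libraries. DESeq2 called RBFOX3 lower (-4.59 on the log2 scale, SE 1.01, adjusted p = 0.000348). RBFOX3 received no adjusted p under the replicate block, with the term for the replicates numbered 3 or in replicates 1 and 2 alone. The same held without empty vector replicate 3. RBFOX3 is also on the list of neuron markers. CLCA2, 280 kb from SH3GLB1, had normalized counts of 1.01, 1.77 and 8.59 with the empty vector and 71.8, 11.8 and 15.8 with overexpression, and was called higher (3.16 on the log2 scale, SE 0.88, adjusted p = 0.0108 in DESeq2). Its log2 fold change was 1.89 without overexpression replicate 1 (adjusted p = 0.63 in DESeq2) and 4.57 without empty vector replicate 3. CLCA2 was no longer called in edgeR (0.121), or in DESeq2 once empty vector replicate 1 (0.111) or 2 (0.0871) was left out. Under the replicate block CLCA2 received no adjusted p.

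The genes that ran most closely along with SH3GL2 and NPTX2 over the 6 libraries were named by the root mean square difference of log2(normalized count + 1), each profile centred on its own mean, among the 13332 genes averaging 50 or more normalized counts. For SH3GL2 they were UNC5D (0.353), a netrin receptor gene, MAGEA1 (0.520), PLXDC2 (0.755), NPTX2 itself (0.842) and CTAG2 (0.856). UNC5D went from 31.9 ± 6.29 to 567 ± 44.4 in normalized counts (± SD, n = 3 per group) and MAGEA1, a cancer-testis antigen gene, from 42.9 ± 4.15 to 250.3 ± 24.6. MAGEA1 and CTAG2 belong to multigene families, and whether their reads are shared with relatives was not tested. For NPTX2 they were CDH11 (0.129), SPP1 (0.139), HAS2 (0.147) and IGFBP5 (0.150). CDH11, a cadherin gene, went from 47.1 ± 10.4 to 174 ± 8.97 normalized counts, SPP1, which encodes osteopontin, from 218 ± 27.0 to 685 ± 52.5 and IGFBP5 from 1263 ± 32.0 to 4070 ± 303. HAS2, which makes hyaluronan, went from 34.4 ± 1.04 to 127 ± 25.1. The distances for SH3GL2 were 2 or more times those for NPTX2. All these names rest on the same group difference as the members, over 6 libraries of 2 lines.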

How the data were processed

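RNA sequencing of 6 A375 libraries, 3 with the empty vector and 3 overexpressing HMGB2 per the labels, was analysed. The authors deposited raw counts of reads per gene in the layout of the STAR aligner, after FastQC, Trimmomatic and alignment to hg38. The submitters' processing notes also name bcl2fastq 2.20. The STAR version and annotation release were not given in the sources used here. The deposited column for either strand was used, without its 4 summary lines. Of 58302 IDs, 57532 matched GENCODE 44, and unmatched IDs held 0.0575% of counts.

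As in the study's methods, the group effect was tested by DESeq2 with defaults (version 1.42.0, R 4.3.3), with Benjamini-Hochberg adjustment over all genes and calls at 0.05. Every adjusted p in the report is from DESeq2 unless edgeR is named. TPM was computed over merged exons. Principal components used genes averaging 10 or more normalized counts. Scripts were tested on simulated data, where DESeq2 made more false calls than edgeR at the same threshold. Promoters are from RefSeq, and 6 of 8 genes matched. Biopython 1.88 aligned coding sequences.

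The members, lists and settings were chosen with earlier results of these data known. Genes named were all members, HMGB2, called partner genes and the highest per list, the 6 neighbours with the largest called change, the nearest neighbours of SH3GL2 and NPTX2, and the 5 genes most like each, of which 1 is not reported here. DNM1 to DNM3, SYNJ1, SYNJ2, the AMPA receptors, CRP, PTX4 and APCS were named after their values were seen. Alternatives were edgeR 4.0.16 with TMM scaling, TMM in DESeq2, 10 counts in 3 libraries, no independent filter, summed stranded columns, a block for the replicate number, a term for the replicates numbered 3, replicates 1 and 2 alone, shrunken fold changes, longest transcripts, a window of 500000 bases and leaving out each library.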

Additional observations from a re-analysis of the deposited data

How the results depend on the processing

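HMGB2 stayed called under every alternative tried for it. The number of genes called over the whole table did not stay, against 432 higher and 498 lower in the report. EdgeR gave 215 and 255, the replicate block 886 and 940, the term for replicates numbered 3 gave 1374 and 1359, replicates 1 and 2 alone 1203 and 1418, and leaving out 1 library 155 to 1334 and 208 to 1520, with the highest of both without empty vector replicate 3 and lower counts than in the report without each of the other 5. Whether replicate numbers pair the libraries was not settled. Deviations of libraries with the same number correlated at 0.0906, 0.142 and 0.349 over 16692 genes, the last for the replicates numbered 3. Each replicate 3 correlated negatively with replicates 1 and 2 of the other group (-0.137 to -0.272). Overexpression replicate 1 correlated best with empty vector replicate 2 (0.101), and overexpression replicate 2 with empty vector replicate 1 (0.212). Deviations within a group sum to 0, so these values depend on each other. In these 3 fits (block, term, replicates 1 and 2 alone) and without empty vector replicate 3, SH3GLB2 made 1 member called lower, so leaving out 1 library gave 0 to 1.

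Partner genes called higher (3 in the report) were 6 with that term, 5 in replicates 1 and 2 alone and 0 to 4 leaving out 1 library. Those called lower (2) were 1 in edgeR, 9 with that term, 10 in replicates 1 and 2 alone and 1 to 8 leaving out 1 library. Neighbours called higher (4) were 0 in edgeR, 2 without the independent filter, 8 under the block, 18 with that term, 13 in replicates 1 and 2 alone and 0 to 14 leaving out 1 library. Neighbours called lower (9) were 20 under the block, 30 with that term, 40 in replicates 1 and 2 alone, 3 within 500000 bases, where fewer genes are counted, and 4 to 42 leaving out 1 library. The highest counts leaving out 1 library were again without empty vector replicate 3, and the cause was not tested.

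The log2 fold change of SH3GL1 changed sign around 0, to 0.012 with summed stranded columns and to values within -0.073 to 0.029 when 1 library was left out, and that of SH3GLB1 ran from -0.012 to 0.051 when 1 library was left out. With the longest transcript as length, 4 of 8 genes kept their place in the empty vector order. The share of SH3GL2 in endophilin A was 0.217% and 2.60% by the longest transcript and 0.230% and 2.71% by the stranded columns. Of the 5 genes most like SH3GL2, 3 stayed with TMM-scaled counts and 2 with a mean of 10 or more, and of those most like NPTX2, 2 stayed with TMM. Depth limits genes with few reads, such as AMPH with 20 and 87 reads per group.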
